A study of Mus musculus with 6 samples.

Results

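Myl7, Myl4, Sln and Mybphl are 4 genes known as markers of atrial heart muscle, taken from a table of 17447 gene symbols. They had been picked because their counts differed widely among the sham hearts. All 4 were found in the table, and all 4 passed a minimum of 1 CPM on average over the sham hearts, where CPM is a gene's count per 1000000 counts in that column. No cut-off on the spread was stated for the choice. The data are total RNA libraries from hearts of wild type mice, 3 sham-operated and 3 with chronic kidney disease (CKD) after subtotal nephrectomy, an operation that leaves only a remnant of 1 kidney. Sham mice had the same anaesthesia, opening of the abdomen and exposure of the kidneys with no kidney tissue removed. Strain, sex, age and the time of sampling were absent from the labels used here. The labels name the tissue as heart and do not say which chambers were taken, and 1 batch label covers all 6 samples.

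The atria and ventricles of the adult mouse heart use different versions of the same contractile parts. Myosin carries a regulatory and an essential light chain on each neck, and atrial myocytes fill these places with the products of Myl7 and Myl4, where ventricular myocytes use Myl2 and Myl3. Sarcolipin, the product of Sln, restrains the calcium pump of the sarcoplasmic reticulum in atrial and skeletal muscle, as phospholamban (Pln) does mainly in ventricle. Mybphl encodes a relative of the cardiac myosin binding protein C (Mybpc3) and is found in atrial muscle and in cells of the conduction system.

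The row labels were checked first. Across all genes, columns of 1 group correlated closely by rank, with Spearman's rho of 0.982 to 0.985 within sham (3 pairs) and 0.984 to 0.987 within CKD (3 pairs). Each sham column set against each CKD column gave -0.0586 to -0.0528 (9 pairs). The myosin heavy chain gene Myh6 reached 362529, 443278 and 474768 counts in sham, while its CKD values were 0, 0 and 1. The member rows held 0, 0 and 0 counts in CKD for Myl7, 1, 0 and 0 for Myl4, 5, 6 and 8 for Sln, and 0, 1 and 0 for Mybphl. The troponin gene Tnnt2 had 99835, 100679 and 112138 sham counts and CKD values of 17, 24 and 18. The cardiac actin gene Actc1 was an exception among those looked at, with 158789, 169286 and 173880 sham counts and CKD values of 22584, 22899 and 26672. Because the ranks of the genes did not correspond between the groups, gene names were not trusted in the CKD columns, and the members are described in the 3 sham hearts alone. The sham totals were 10480788, 10474487 and 12669724 counts. Cardiomyocyte genes of both chambers summed to 110644, 124155 and 110858 CPM in sham 1, 2 and 3, and the 4 lung and airway genes found were at 0 in each. The labels do not say that the sham samples are separate animals beyond their numbers. With 1 library per heart and members picked for these very differences, no test was made between hearts, and each interval below is a 95% interval for counting error alone.

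The sequences before the annotated starts of the members are shown because the 4 genes fell in the same order across the hearts. RefSeq's table for GRCm38.p6 held 3 of the 4, and Sln had no entry. The 250 bases before the start are given 5′ to 3′ on the gene's strand, with GATA motifs (AGATAA, also with T as its first or G as its last letter), MEF2 motifs and CArG boxes, the binding motif of serum response factor, in capitals.
Myl7, chr11:5898783-5899032, minus strand: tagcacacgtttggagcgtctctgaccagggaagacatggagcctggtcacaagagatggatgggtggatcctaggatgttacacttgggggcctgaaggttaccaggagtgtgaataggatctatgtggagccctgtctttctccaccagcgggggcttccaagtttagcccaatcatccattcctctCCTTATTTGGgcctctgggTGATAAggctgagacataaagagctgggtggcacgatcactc
Mybphl, chr3:108364661-108364910, plus strand: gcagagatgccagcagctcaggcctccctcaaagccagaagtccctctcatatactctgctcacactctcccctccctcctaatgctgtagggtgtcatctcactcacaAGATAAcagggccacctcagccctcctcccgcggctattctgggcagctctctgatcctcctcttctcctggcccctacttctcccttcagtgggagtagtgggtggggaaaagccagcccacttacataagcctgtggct
Myl4, chr11:104550413-104550662, plus strand: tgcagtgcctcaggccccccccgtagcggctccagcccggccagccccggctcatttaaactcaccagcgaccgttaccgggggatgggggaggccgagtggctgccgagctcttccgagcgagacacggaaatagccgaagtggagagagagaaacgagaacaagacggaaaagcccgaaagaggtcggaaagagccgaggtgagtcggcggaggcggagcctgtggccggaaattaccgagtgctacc
On either strand, a GATA motif was found at -42 to -37 from the start of Myl7 and at -141 to -136 from that of Mybphl, and 26.5% of all 32851 promoter windows of this length held at least 1. The Myl7 window held a CArG box at -61 to -52, as did 1.47% of all windows. The 5 letters AAGTG, the core of NKX2-5 sites, were in all 3 windows and in 40.7% of all windows. No MEF2 motif, T-box motif AGGTGT, nuclear receptor half-site AGGTCA or TATAAA was in any of the 3 windows, against 2.92%, 11.8%, 14.0% and 12.4% of all windows. A match describes letters only. The annotation lists further Myl4 transcripts that start downstream of this window, and counts per gene do not tell which start was used.

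Myl7, whose product is the regulatory light chain of atrial myosin, gave 5207, 15 and 1032 counts in the hearts sham 1, 2 and 3. These were 497 CPM (interval 483 to 510.5), 1.43 CPM (0.802 to 2.36) and 81.5 CPM (76.6 to 86.6), a mean of 193 ± 266 CPM (SD, n = 3). Sham 1 was high, sham 3 stood between, and sham 2 held almost none of this transcript. The level in sham 1 was 6.10 times that in sham 3 (5.70 to 6.53) and 347 times that in sham 2 (210.1 to 620.3).

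Myl4, the essential light chain of the atria and of the embryonic heart, gave 6000, 25 and 1269 counts in sham 1, 2 and 3. Its levels were 572 CPM (558 to 587), 2.39 CPM (1.54 to 3.52) and 100.2 CPM (94.7 to 106), a mean of 225 ± 305 CPM (SD, n = 3). The hearts fell in the same order as for Myl7. Sham 1 stood 5.72 times above sham 3 (5.38 to 6.08), an interval that overlaps that of Myl7.

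Sln, the small membrane peptide that slows the calcium pump, gave 1152, 2 and 205 counts. In CPM it was at 109.9 (104 to 116) in sham 1, 0.191 (0.0231 to 0.690) in sham 2 and 16.2 (14.0 to 18.6) in sham 3, a mean of 42.1 ± 59.3 (SD, n = 3). The order was again sham 1, sham 3, sham 2. The ratio of sham 1 to sham 3 was 6.79 (5.85 to 7.92), which overlaps those of both light chains. Because sham 2 gave only 2 counts, the ratio of sham 1 to sham 2 is loose, at 576 with an interval of 159 to 4759.

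Mybphl, the myosin binding protein relative, gave 864, 3 and 104 counts, or 82.4 CPM (77.0 to 88.1), 0.286 CPM (0.0591 to 0.837) and 8.21 CPM (6.71 to 9.95), with a mean of 30.3 ± 45.3 CPM (SD, n = 3). It followed the same order of hearts with a wider gap at the top. Sham 1 was 10.04 times above sham 3 (8.19 to 12.4), an interval that lies above those of Myl7, Myl4 and Sln.

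**Figure D1:**
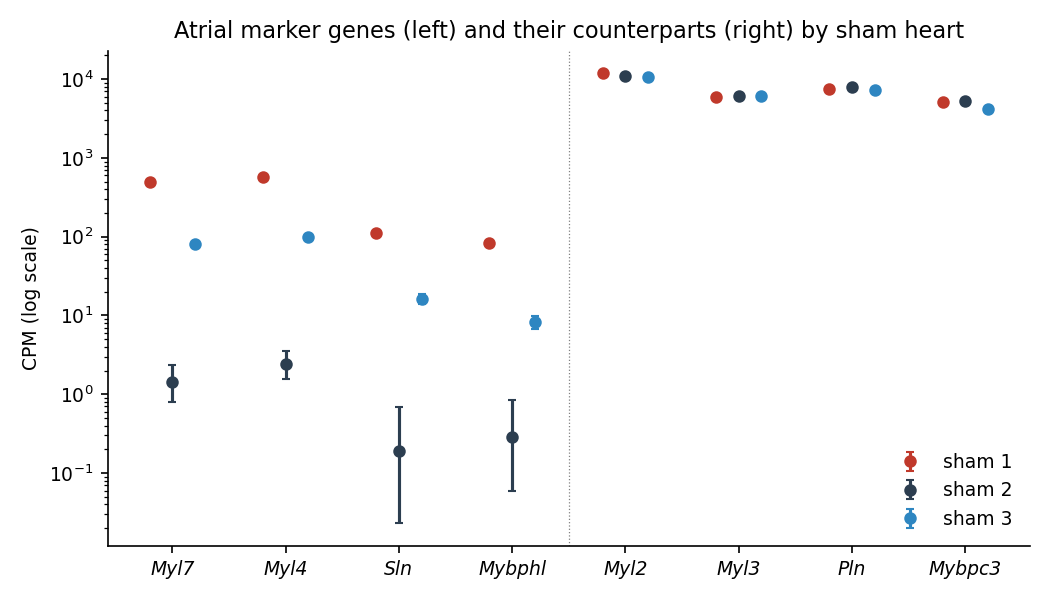
Level of each atrial gene and of its ventricular or general cardiac counterpart in the 3 sham hearts, in CPM on a log axis, with points for single hearts and bars for 95% counting intervals. Myl7 runs from 1.43 CPM in sham 2 to 497 CPM in sham 1, while Myl2 stays between 10565 and 11812 CPM.

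Together the 4 genes took 0.126% of the counts in sham 1 (0.124% to 0.128%, exact binomial interval), 0.000430% in sham 2 (0.000313% to 0.000575%) and 0.0206% in sham 3 (0.0198% to 0.0214%). Without sham 1 the mean of Myl7 was 41.4 CPM, that of Myl4 51.3, that of Sln 8.19 and that of Mybphl 4.25, so sham 1 carried most of each mean. The coefficient of variation over the 3 hearts, a measure of the spread that the choice used, was 138%, 135%, 141% and 149.5% for Myl7, Myl4, Sln and Mybphl, ranks 12, 18, 11 and 7 among 12491 genes with at least 1 CPM on average. The median over those genes was 11.8%. In each adjacent pair of hearts in the order sham 1, sham 3, sham 2, all 4 members differed at least 2-fold, on CPM with 0.5 added to each count. Such a pattern was seen in 46 of the 12491 genes (0.368%), a background printed here with nothing read from it because the members were chosen on these values.

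The proportions of the members to each other were then compared between hearts. Myl7 made up 39.4% of the summed CPM of the 4 genes in sham 1 and 39.5% in sham 3, Myl4 45.4% and 48.6%, Sln 8.71% and 7.85%, and Mybphl 6.53% and 3.98%. The mix was thus close for both light chains and sarcolipin, and Mybphl took a smaller part in sham 3. The ratio of Mybphl to Myl7 counts was 0.166 (0.154 to 0.178) in sham 1 and 0.101 (0.0816 to 0.123) in sham 3, and these intervals do not overlap. The ratio of Sln to Myl7 was 0.221 (0.207 to 0.236) and 0.199 (0.170 to 0.231), and that of Myl7 to Myl4 was 0.868 (0.836 to 0.901) and 0.813 (0.748 to 0.884). In sham 2 the 4 genes gave 45 counts in all, too few to set its mix apart: Mybphl to Myl7 there was 0.200 with an interval of 0.0371 to 0.707.

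A further measure took sham 2 as a base and expressed the excess of sham 3 over it as a percentage of the excess of sham 1. Because sham 2 held almost none of the member transcripts, for the members it nearly restates the ratio of sham 1 to sham 3 given above. It is no separate evidence for them. Transcripts that were added to a common base in 1 fixed mix would all give the same percentage. It was 16.2% for Myl7 (15.1% to 17.3%), 17.2% for Myl4 (16.1% to 18.2%) and 14.6% for Sln (12.4% to 16.8%). These 3 intervals overlap each other. For Mybphl it was 9.64% (7.59% to 11.7%), below the other three. The intervals cover counting error only, and how far the mix of atrial transcripts varies from heart to heart could not be measured with 1 library each.

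Other genes known as enriched in atrial muscle were read from a list of 18, of which 17 passed 1 CPM. Sham 1 had the top value for 14 of these, sham 2 for 2 (Kcnk3 and Angpt1) and sham 3 for 1 (Gja5), where 37.0%, 21.0% and 42.0% of all tested genes were highest in sham 1, 2 and 3. In 9 of the 17, sham 1 was at least 2-fold above sham 2 (5.50% of all genes), in 8 at least 2-fold above sham 3 (1.75%), and in 4 sham 3 was at least 2-fold above sham 2 (6.94%). The list was chosen with earlier results of these data known, so its counts are a description and no independent support. Bmp10 passed 1 CPM through sham 1 alone (24.9, 0.0955 and 0.158 CPM in sham 1, 2 and 3). The median log2 ratio over the 17 was 1.03 for sham 1 to sham 2, 0.95 for sham 1 to sham 3 and 0.26 for sham 3 to sham 2. Over all genes tested these medians were 0.09, -0.02 and 0.11.

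Nppa, which encodes atrial natriuretic peptide, gave 12772, 675 and 3186 counts. Its relative excess was 16.2% (15.3% to 17.1%), inside the range of Myl7, Myl4 and Sln. Hamp, the hepcidin gene, gave 97, 2 and 21 counts and the same percentage with a wide interval, 16.2% (7.35% to 25.0%). The kinase gene Sbk3 gave 753, 42 and 168 counts and 13.6% (10.1% to 17.1%), and Stard10, a lipid transfer protein gene, gave 918, 214 and 362 counts and 12.1% (6.37% to 17.9%). Those 4 genes therefore overlapped Sln in relative excess. Hamp, Sbk3 and Stard10 also overlapped Mybphl (7.59% to 11.7%), so their values do not place them with Sln rather than Mybphl. The ratio of sham 1 to sham 2 was 18.9 for Nppa, 17.9 for Sbk3 and 4.29 for Stard10, below the intervals of the 4 members. For Hamp it was 48.5, with an interval of 13.1 to 406 that overlaps them.

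Bmp10, Pam and Dkk3 had a relative excess outside the intervals of Myl7, Myl4 and Sln. Bmp10, a growth factor gene of the trabeculae and of the right atrium in the adult, gave 261, 1 and 2 counts, a relative excess of 0.251% (-0.908% to 1.41%). Pam, the enzyme that amidates peptides and is abundant in atrial granules, gave 18986, 8782 and 11436 counts and 6.60% (4.20% to 8.997%), below both light chains and overlapping Mybphl. Dkk3, a secreted glycoprotein gene, gave 1927, 31 and 871 counts and 36.4% (33.3% to 39.4%), above all 4 members. Sbk2 (8.06%, -3.09% to 19.2%) was too imprecise to place. The atrial transcription factor gene Nr2f2 (43.3%, 16.5% to 70.1%) lay above Mybphl, and its wide interval overlapped those of Myl7, Myl4, Sln and Dkk3.

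**Figure D2:**
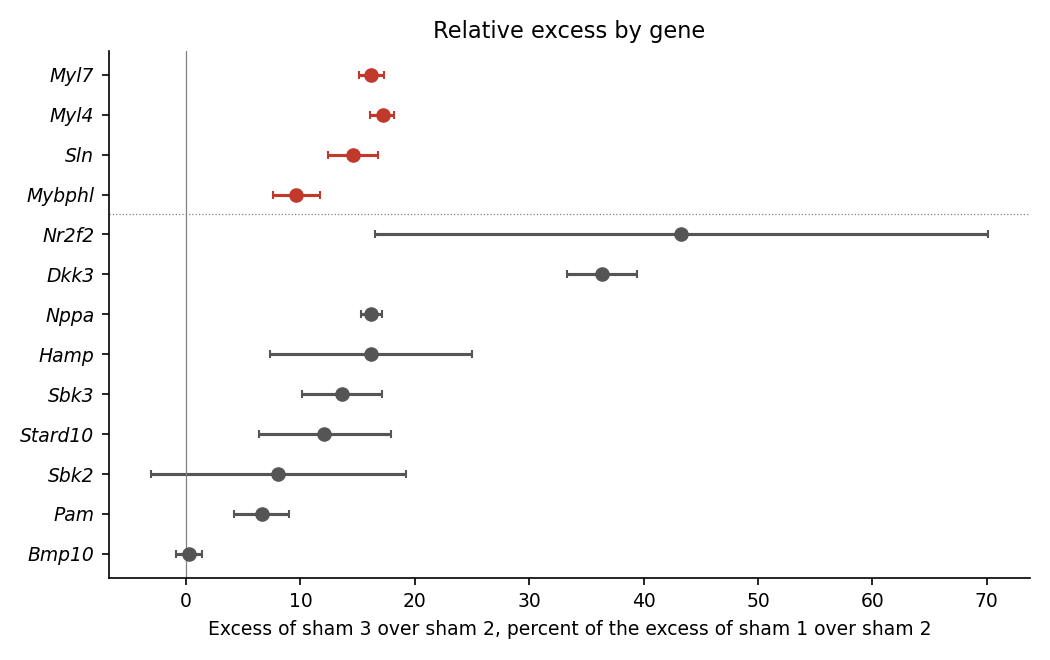
Excess of sham 3 over sham 2 as a percentage of the excess of sham 1 over sham 2, for the 4 atrial marker genes (red) and the 9 other atrial genes with sham 1 at least 2-fold above sham 2 (grey, sorted), with 95% counting intervals. Myl7, Myl4, Sln and Nppa lie between 14.6% and 17.2%, Mybphl at 9.64%, Bmp10 at 0.251% and Dkk3 at 36.4%.

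The remaining listed atrial genes past 1 CPM differed less than 2-fold between sham 1 and sham 2. The potassium channel genes Kcnj3 (169, 121 and 89.7 CPM), Kcnj5 (132, 118 and 128 CPM) and Kcna5 (32.5, 28.2 and 24.3 CPM) lacked the depletion of sham 2 seen for the members. Kcnk3 was at 356, 371 and 336 CPM, and Tbx5, a transcription factor gene of atria and conduction system, at 67.5, 39.2 and 35.0 CPM. Gja5, the atrial and conduction connexin, was at 12.3, 8.02 and 14.9 CPM, Nr2f1 at 3.43, 2.77 and 3.08 CPM, and the angiopoietin gene Angpt1 at 39.5, 41.9 and 35.0 CPM.

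**Figure D3:**
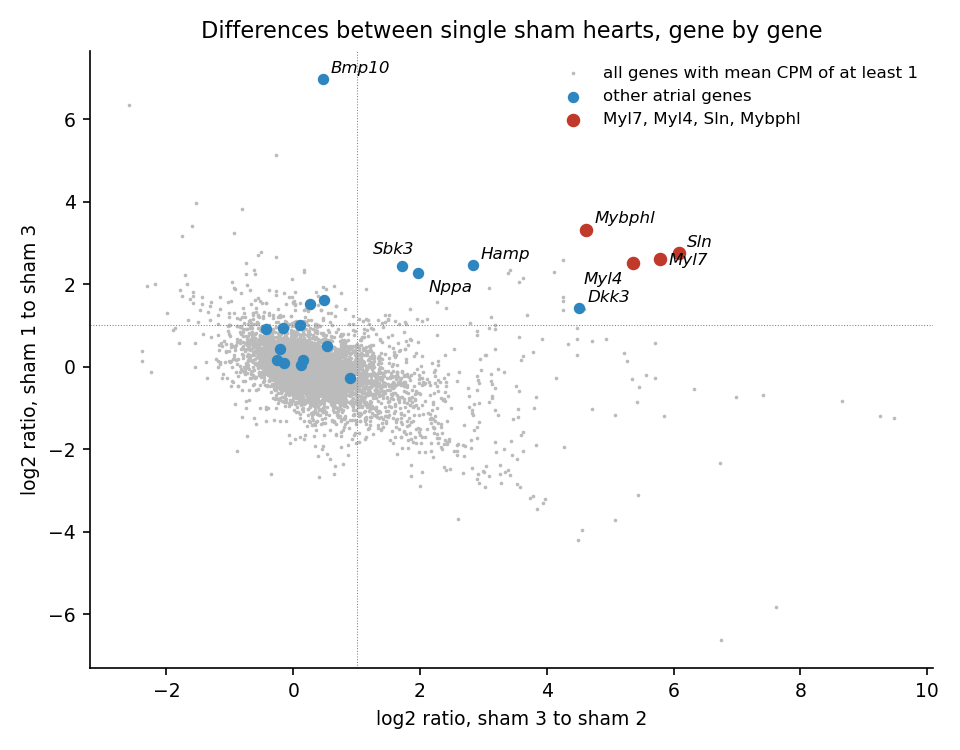
Log2 ratio of sham 1 to sham 3 against that of sham 3 to sham 2 for 12491 genes (grey), the 17 other atrial genes (blue) and the 4 atrial marker genes (red), on CPM with 0.5 added to each count, with dotted lines at 2-fold. The 4 marker genes lie at 2.51 to 3.32 on the vertical axis and 4.63 to 6.09 on the horizontal axis, among the 46 genes past both lines.

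Of the ventricular and general counterparts, Myl2, Myl3 and Pln had coefficients of variation of 5.98%, 1.75% and 4.61%, below the median of 11.8% over all genes tested. That of Mybpc3 was 12.5%. Myl2 was at 11812, 10810.3 and 10565 CPM in sham 1, 2 and 3, and Myl3 at 5889.5, 6097 and 6021 CPM. Phospholamban (Pln) was at 7439.7, 7954 and 7291 CPM and Mybpc3 at 5154, 5334 and 4195 CPM. Of the 7 ventricular genes, sham 1 had the top value for 2, sham 2 for 4 and sham 3 for 1 (all genes: 37.0%, 21.0% and 42.0%), with a median log2 ratio of -0.06 for sham 1 to sham 2 and -0.08 for sham 3 to sham 2. Irx4, a ventricular transcription factor gene, was at 49.1, 55.8 and 52.7 CPM, Hey2 at 5.82, 6.11 and 4.97, the channel subunit Kcnip2 at 229, 216 and 167, and Fhl2 at 1839, 1915 and 2045.

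Levels of different genes were compared per kilobase of the principal GENCODE transcript. In sham 1 this gave 842 CPM per kb for Myl7, 607 for Myl4, 83.4 for Sln and 64.6 for Mybphl, so Myl7 led per length although Myl4 had more counts. Myl7 made up 5.96% of the Myl7 and Myl2 level per length in sham 1, 0.01996% in sham 2 and 1.15% in sham 3. The share of Myl4 beside Myl3 was 8.81%, 0.0389% and 1.63%, and that of Sln beside Pln was 2.55%, 0.00425% and 0.391%. Mybphl beside Mybpc3 was at 4.96%, 0.0175% and 0.634%. In every pair the atrial gene was the minor partner in all 3 hearts. With the union of all exons as the length, the sham 1 shares were 8.14% for Myl7, 7.94% for Myl4 and 3.00% for Sln, which puts Myl7 above Myl4. How reads shared by related light chain genes were counted was not stated in the labels.

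The genes most like the members were found by the distance between centred log2 CPM profiles over the 3 sham hearts. The members themselves lay 0.23 (Myl7), 0.28 (Myl4), 0.49 (Sln) and 0.60 (Mybphl) from their mean. The nearest other gene was Fgf12, an intracellular modulator of sodium channels, at 1.09, with 171, 1 and 34 counts. Rxfp1, the relaxin receptor, followed at 1.36 with 42, 0 and 10 counts. Then came Lrrn4 (1.63), Upk3b (1.64), Dkk3 (1.66), Alox8 (1.71), Nfasc (1.74), Bmp3 (1.82), Krt7 (1.87) and Frmpd1 (1.88). Of the 10, 6 had at most 42 counts in sham 1 and none in sham 2, so their place rests on few reads, and profiles over 3 hearts can match for many reasons.

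Among the 46 genes with both 2-fold steps (0.368% of all genes tested), 30 were on none of the marker lists. The members, picked on these values, were 4 of the 46, other atrial genes 4, sinus node and conduction genes 3 and mesothelial genes 3. Those mesothelial genes (Upk3b, Msln and Lrrn4) gave at most 1 count in sham 2 and passed 1 CPM through the other hearts. Of the 46, 10 averaged at least 10 CPM. They were the 4 members, 3 genes of the atrial list (Nppa, Dkk3 and Sbk3), Cacna2d2, Myh7 and Lmntd1, which are named after their values were seen. Cacna2d2, a calcium channel subunit gene on the sinus node and conduction list, gave 452, 31 and 202 counts. Lmntd1 gave 268, 5 and 78. Myh7, the slow myosin heavy chain gene on the fetal and hypertrophy list, gave 4141, 639 and 2445, a relative excess of 39.5%. It was the only 1 of the 7 genes on that list with both steps. Of those 7, sham 1 was highest for 4, sham 2 for 1 and sham 3 for 2 (all genes: 37.0%, 21.0% and 42.0%). The list summed to 4098, 2329 and 3929 CPM in sham 1, 2 and 3.

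Markers of other cells and tissues also differed between the sham hearts. All 4 epicardial and mesothelial genes that passed 1 CPM were highest in sham 1 and lowest in sham 2 by CPM, beside 37.0% and 48.8% of all genes. That list summed to 27.2, 4.77 and 13.2 CPM, with Upk3b at 8.78, 0.0955 and 2.68 CPM. Wt1 was at 5.92, 4.49 and 5.37 CPM with overlapping counting intervals. Upk3b, Msln and Lrrn4 gave 1, 1 and 0 counts in sham 2 and passed 1 CPM through the other hearts. Nothing is therefore read from their order. Of 8 sinus node and conduction genes, 6 were highest in sham 1 and 2 in sham 3 (all genes: 37.0% and 42.0%), and the list summed to 258, 138 and 257 CPM. Its highest members Smoc2 (99.6, 69.0 and 128 CPM) and Cacna1g (34.9, 19.6 and 48.6 CPM) were highest in sham 3, and the pacemaker factor Shox2 gave 53, 6 and 17 counts. Sham 1 was also the top heart for 10 of 13 immediate early genes (37.0% of all genes), with sums of 741, 279 and 327 CPM, among them the phosphatase gene Dusp1 (215, 68.4 and 62.0 CPM) and the transcription factor gene Egr1 (118, 19.4 and 65.4 CPM).

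The next lists had their highest sums in sham 3 and, like the members, their lowest in sham 2. All 8 fibroblast and matrix genes were lowest in sham 2, beside 48.8% of all genes, with sums of 2058, 1043 and 2368 CPM. The 4 valve and cartilage-like matrix genes past 1 CPM were all highest in sham 3, as were 42.0% of all genes, and that list summed to 123, 7.92 and 235 CPM. Smooth muscle genes summed to 293, 213 and 511 CPM, endothelial genes to 1439, 1203 and 1606, macrophage genes to 461, 356 and 571, and red blood cell genes to 111, 82.7 and 485. Skeletal muscle, where Sln is also expressed, was hardly seen: its 10 genes summed to 5.53, 3.34 and 7.42 CPM, and Myh4, Myh1 and Myh2 were at 0 in every sham heart. The part of these other markers in the differences of the members was not tested, nor was a difference in the amount of atrial tissue. In bulk tissue, fewer cells of a type and less of their RNA per cell cannot be told apart.

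**Figure D4:**
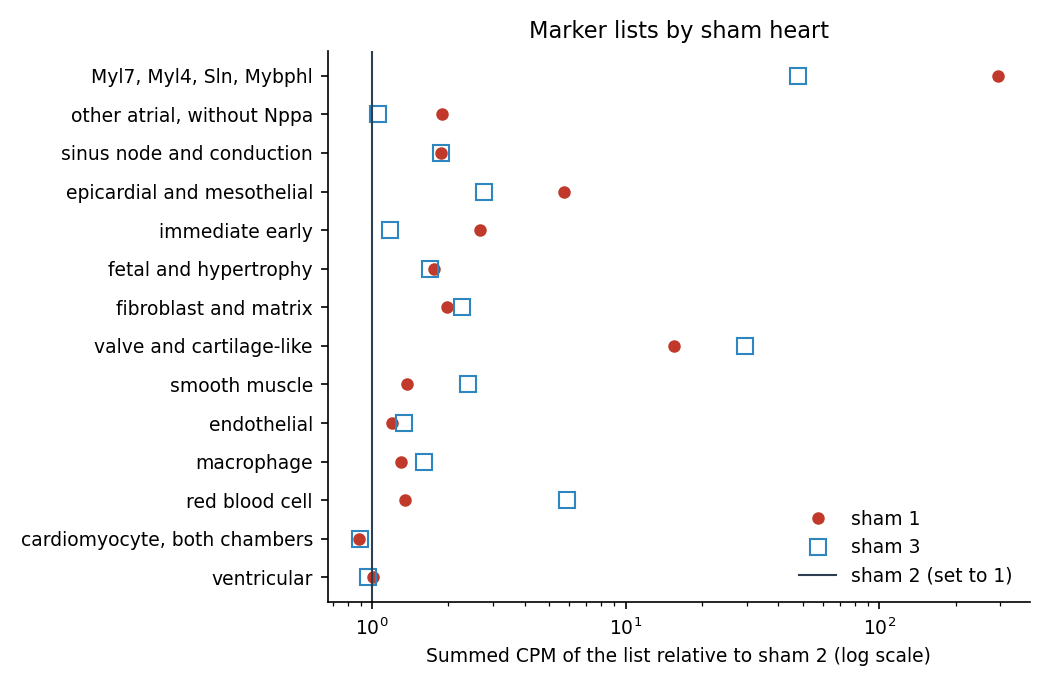
Summed CPM of each marker list in sham 1 (filled circles) and sham 3 (open squares) relative to sham 2, on a log axis. The 4 atrial marker genes run from 4.30 CPM in sham 2 to 1262 CPM in sham 1, while the ventricular list stays between 26146 and 27264 CPM and the valve and cartilage-like list is highest in sham 3 at 235 CPM.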

How the data were processed

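The authors deposited 1 table of whole-number read counts, not normalized, with a row per gene symbol and a column per heart that was matched to its sample by name. The tools named in the submitters' processing notes are Trimmomatic, HISAT2, HTSeq and DESeq, and the build is mm9. Versions, settings, strandedness and annotation were not given in the sources used here. Depth was 10474487 to 12669724 counts per sham column, so 3 counts correspond to 0.237 to 0.286 CPM.

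CPM was the count over the column total. Counting intervals (95%) were exact Poisson for levels, exact binomial for shares and ratios, and a delta-method approximation for the relative excess. These treat reads as independent molecules. Log2 ratios used 0.5 added to each count and genes with a mean of at least 1 CPM. The CKD columns entered the label check alone, and no model was fitted between groups or hearts. Genes planned to be named were the members, their counterparts, the atrial and ventricular lists and the 2 highest genes of other lists. The 10 nearest profiles by Euclidean distance were added, leaving out predicted-gene and clone symbols. The 2 highest genes are given in the text only for the conduction, mesothelial, immediate early and fat lists. Shox2, Cacna2d2, Myh7, Lmntd1, Msln and the skeletal myosins were added after their values were seen. So was the limit of the relative excess to atrial genes at least 2-fold higher in sham 1 than in sham 2. The members and lists were chosen with earlier results of these data known. Other scalings were TMM in edgeR 4.0.16 and size factors in DESeq2 1.42.0 (R 4.3.3). Transcript lengths came from GENCODE M21 (GRCm38) and promoters from RefSeq (GRCm38.p6), neither being the named build. Scripts (Python 3.11.15, scipy 1.17.1) were tested on simulated data.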

Additional observations from a re-analysis of the deposited data

How the results depend on the processing

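Of 51 alternative values, 45 stayed within the SD over the hearts, the counting interval or 1.5 times the count, whichever applied. With TMM or DESeq2 size factors the ratios of sham 1 to sham 3 were 6.14 and 6.17 for Myl7 and 10.1 and 10.2 for Mybphl, and the count of atrial genes highest in sham 1 was 14 with TMM as with column totals. By arithmetic a mean of 3 shifts by less than its SD when 1 heart is dropped, which tells nothing of stability. Rescaled means could hardly leave that range either, because the SD of each member exceeded its mean. Leaving the sham 2 base in the relative excess could change little, because sham 2 held almost none of the member transcripts. Many of the 45 values were thus bound to stay. With 1 heart dropped, the means ran from 41.4 to 289 CPM for Myl7, 51.3 to 336 for Myl4, 8.19 to 63.0 for Sln and 4.25 to 45.3 for Mybphl, lowest without sham 1. The count of 46 genes with both 2-fold steps became 193 with no filter on low values, 10 with a mean of at least 10 CPM and 114 with 1.5-fold steps, each by its own construction. With the union of exons as the length, chosen after seeing the data as was leaving the base in place, the shares in sham 1 became 8.14% for Myl7, 7.94% for Myl4 and 3.00% for Sln. No paired analysis was possible because the results come from no test between groups. In sham 2 the members gave 2 to 25 counts, which limits every ratio to that heart.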

Other observations

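Genes high in sham 1 alone, the pattern of Bmp10, were looked for after its values were seen. With sham 1 at least 8-fold above both other hearts and those within 2-fold of each other, 3 genes with a mean of at least 1 CPM were found. Besides Bmp10 these were Apold1, an endothelial early response gene, with 1248, 154 and 106 counts in sham 1, 2 and 3, and Mlana, a melanocyte gene, with 43, 1 and 1 counts. Bmp10 (261, 1 and 2 counts) and Mlana passed 1 CPM through sham 1 alone. Counts of 1 or 2 cannot show that sham 2 and sham 3 were alike for Bmp10 and Mlana. Other melanocyte genes were mixed: Sox10 (46, 13 and 19 counts) and Tyrp1 (13, 0 and 7) were highest in sham 1, and Dct (146, 71 and 191) and Pmel (9, 3 and 18) in sham 3.

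The fat gene list summed to 36.3, 31.3 and 45.4 CPM in sham 1, 2 and 3. Its most abundant gene, Cidea, was highest in sham 2 (21.8, 30.2 and 29.99 CPM). Adipoq (30, 2 and 27 counts), named like Ucp1 after its values were seen, and Cfd (94, 6 and 138) were lowest there, and Ucp1 was at 0 in each sham heart.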
